A study of Mus musculus with 6 samples.

Results

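The genes described here are 4 subunits of the beta 2 leukocyte integrins (Itgam, Itgax, Itgal and Itgb2), the integrin alpha 4 chain Itga4, and the receptors for the complement fragments C3a and C5a, C3ar1 and C5ar1. They were taken by gene symbol, and all 7 were found among the 23420 genes of the retinal RNA-seq count table. The table held 6 libraries of mouse retina, 2 per group. Control retinas were from untreated mice. Light-exposed retinas were taken 4 days after bright white light of 10000 lux for 1 h, and a further group was exposed in the same way and received intraperitoneal minocycline, a tetracycline with anti-inflammatory activity, at 45 mg/kg daily for 4 days. The sample labels give the strain as CD1 in every group, whereas the methods describe albino BALB/cJ mice of both sexes, 10 to 14 weeks old, a higher light intensity, and extra minocycline doses at the start of a course that began the day before light. The methods name saline as solvent control only where indicated, and a saline injection is not stated for the control and light groups of the RNA-seq. How many animals made up a library is not given in the sources used here.

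Beta 2 integrins are leukocyte adhesion receptors in which the common beta chain Itgb2 (CD18) pairs with Itgal (CD11a) to form LFA-1, with Itgam (CD11b) to form complement receptor 3, and with Itgax (CD11c) to form complement receptor 4. LFA-1 binds ICAM proteins on endothelium, and the complement receptors take up particles coated with cleaved C3; in the healthy retina Itgam and Itgb2 are borne mainly by microglia, the resident macrophages. Itga4 pairs with Itgb1 to form VLA-4, a receptor for VCAM-1 and fibronectin, while C3ar1 and C5ar1 are G protein-coupled receptors that detect the small fragments released when complement C3 and C5 are cut.

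Total counts per library lay between 15205930 and 22856922, and levels are given as CPM, counts divided by library size after TMM scaling. For a gene seen at 0 counts, the 95% upper limit of the expected count is about 3, which is 0.131 to 0.213 CPM. This limit covers counting error only. The second light-exposed library (light 2) stood above the first (light 1) for every one of the 7 genes, by 1.65-fold for Itga4 to 4.88-fold for Itgax. The summed level of 5 pan-leukocyte markers (Ptprc, Cd53, Laptm5, Coro1a and Lcp1) moved with it, at 79.0 CPM in light 1 and 245 CPM in light 2 against 10.3 and 13.0 CPM in the controls. Of 8 rod genes 8 were lower in both light libraries than in both controls and Xist stood at 77778 counts in control 1 against 25 to 188 in the other libraries. The minocycline libraries, called A and B because their columns carry no number, held 190 and 266 CPM of corneal epithelium markers against at most 15.2 CPM elsewhere, and 65.5 and 326 CPM of smooth muscle markers against at most 18.0 CPM. The part of these differences in the results was not tested, and in bulk retina fewer cells of a type and less RNA per cell cannot be told apart.

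In the GRCm38 annotation Itgal (chr7:127296260-127335138), Itgam (chr7:128062640-128118491) and Itgax (chr7:128129547-128150657) lay on the plus strand of chromosome 7, with Itgam and Itgax next to each other, while Itgb2 lay at chr10:77530252-77565708 and Itga4 at chr2:79255426-79333123, also on the plus strand. C3ar1 (chr6:122847138-122856161) and C5ar1 (chr7:16246743-16259540) lay on the minus strand. The RefSeq promoter table for GRCm38.p6 held 5 of the 7 genes (Itgam, Itgax, Itga4, C3ar1 and C5ar1). The 250 bases before the start are shown for Itgam and C3ar1, which had the most counts after light, and for Itga4, whose levels differed least between groups. Capitals mark GAGGAA, the core of the site bound by the myeloid factor PU.1, on either strand (TTCCTC on the reverse), and no other motif was searched.
Itgam, chr7:128062390-128062639, plus strand: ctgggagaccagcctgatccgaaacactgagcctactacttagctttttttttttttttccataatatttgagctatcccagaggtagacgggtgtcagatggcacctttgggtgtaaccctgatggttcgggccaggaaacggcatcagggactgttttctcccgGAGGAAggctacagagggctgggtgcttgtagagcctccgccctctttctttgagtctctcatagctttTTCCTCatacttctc
C3ar1, chr6:122856158-122856407, minus strand: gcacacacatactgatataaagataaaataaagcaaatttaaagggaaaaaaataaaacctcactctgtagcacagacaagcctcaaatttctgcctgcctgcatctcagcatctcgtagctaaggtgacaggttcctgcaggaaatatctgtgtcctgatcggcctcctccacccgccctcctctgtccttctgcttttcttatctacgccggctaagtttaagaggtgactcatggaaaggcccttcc
Itga4, chr2:79255176-79255425, plus strand: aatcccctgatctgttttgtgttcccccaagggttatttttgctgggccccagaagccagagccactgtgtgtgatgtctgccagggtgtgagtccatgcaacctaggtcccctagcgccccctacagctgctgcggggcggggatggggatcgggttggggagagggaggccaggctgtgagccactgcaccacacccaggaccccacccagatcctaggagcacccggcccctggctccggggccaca
The Itgam sequence held 2 matches, 1 on each strand, which begin 84 and 15 bases before the start. These letters were not found in the windows of the other 4 genes, and 23.3% of 32851 promoters of the same length held at least 1. The share of G and C was 45.6% in C3ar1, 49.6% in Itgam, 52.8% in C5ar1 and 64.0% in Itga4, against a median of 52.4% over all promoters.

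Transcripts of the beta 2 integrins were scarce in control retinas and more abundant in both light-exposed libraries, and they were again low with minocycline. Itgb2, the shared beta chain, had 5 and 14 counts in the controls, 150 and 638 after light, and 41 and 11 with minocycline. In CPM these were 0.356 and 0.986, 8.77 and 30.3, and 1.79 and 0.583. Both light libraries lay above all 4 others, while the control and minocycline libraries overlapped. The mean of 19.5 ± 15.2 CPM after light (SD, n = 2) was 29.1-fold that of the controls (0.671 ± 0.446), and the log2 fold change of 4.86 ± 0.92 (SE) passed the test with an adjusted p = 0.0469 (edgeR quasi-likelihood test, Benjamini-Hochberg).

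Itgam, the alpha chain of complement receptor 3 and the usual surface marker of microglia and myeloid cells, was the most abundant beta 2 alpha chain per kilobase of exon in all 6 libraries. It had 23 and 30 counts in the controls, 203 and 967 after light, and 72 and 33 with minocycline, or 1.64 and 2.11, 11.9 and 45.9, and 3.14 and 1.75 CPM. The controls lay close together, and the lower light library (11.9 CPM) was well above the higher control (2.11 CPM). The mean after light (28.9 ± 24.1 CPM) was 15.4-fold that of the controls (1.87 ± 0.338), yet the log2 fold change of 3.95 ± 0.92 missed the threshold at an adjusted p = 0.0974 (edgeR). The annotation holds a readthrough model, Gm49368, over Itgam on the same strand with which it shares 66.3% of its 50-base stretches. That model had no row in the table, so how its reads were assigned is not known here.

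Itgax, the alpha chain of complement receptor 4 and a marker of dendritic cells and of some activated microglia, had 1 and 6 counts in the controls, 17 and 102 after light, and 6 and 2 with minocycline. The corresponding levels were 0.0711 and 0.423, 0.993 and 4.85, and 0.261 and 0.106 CPM. The light libraries lay above the others and differed from each other the most of the 7 genes. The log2 fold change from control of 3.54 ± 1.03 did not pass (adjusted p = 0.0782, edgeR). Of its 50-base stretches 8.02% were shared with Itgad, another beta 2 alpha chain, which had 0 counts in every library.

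Itgal, the alpha chain of LFA-1 and best known from lymphocytes, had 0 and 2 counts in the controls, 18 and 38 after light, and 5 and 2 with minocycline. It was above the limit of 3 counts in both light libraries (1.05 and 1.81 CPM) and below or near it elsewhere (0 and 0.141 CPM in the controls, 0.218 and 0.106 CPM with minocycline). This gene had the closest pair of light libraries among the beta 2 chains, with light 2 at 1.72-fold of light 1. It passed the test with an adjusted p = 0.0157 (edgeR). Because the controls held 2 counts together, its size is given as the ratio of pooled counts per library size, 20.7-fold with an exact 95% interval of 5.48 to 175 that covers counting error only.

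**Figure D1:**
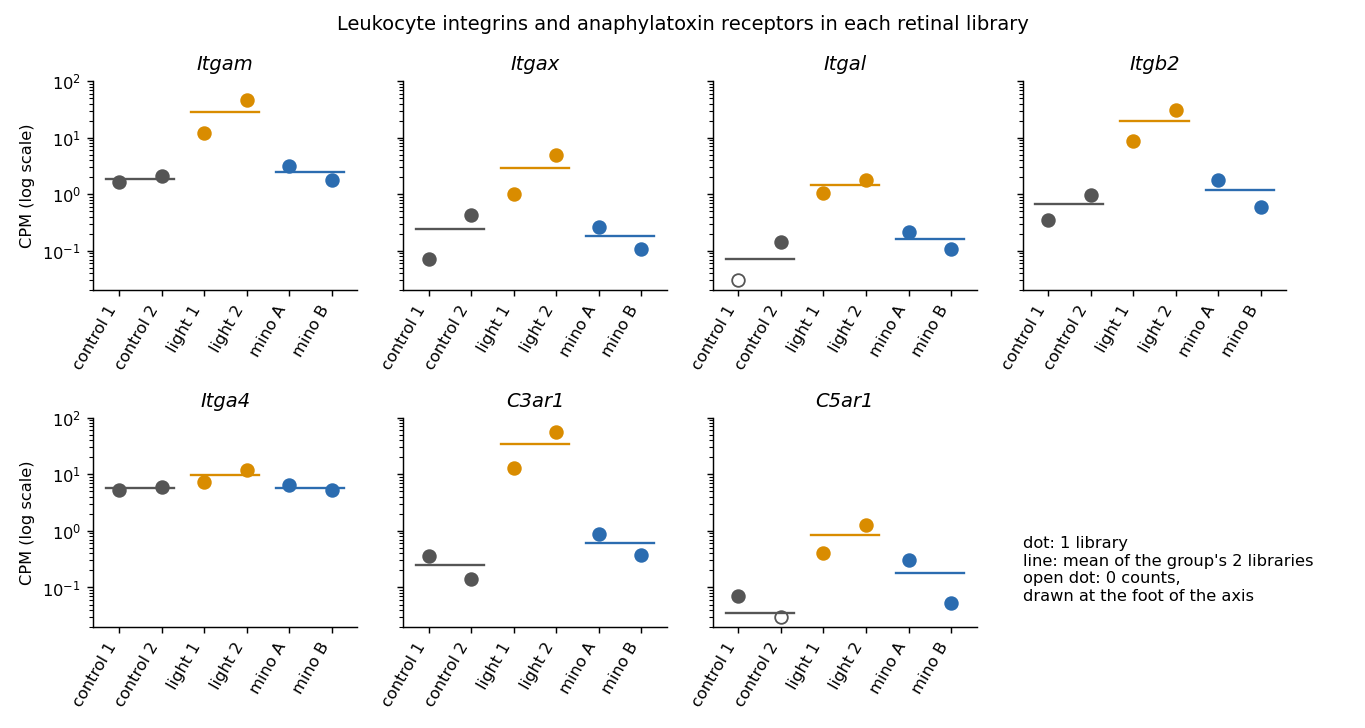
CPM of the 7 genes in each library on a log axis, with control libraries in grey, light in orange and light with minocycline in blue; lines mark group means and open dots libraries with 0 counts, drawn at the foot of the axis. In every panel both light libraries lie above both controls and both minocycline libraries, with the narrowest gap for Itga4 (7.36 CPM in light 1 against 6.36 CPM in minocycline A). For C5ar1, light 1 and minocycline A held the same 7 counts.

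As a share of the summed counts of Itgam, Itgax and Itgal, Itgam made up 78.9% to 95.8% in all 6 libraries, without correction for exon length. In light 1 it was 85.3% (95% Wilson interval 80.2 to 89.2) and in light 2 it was 87.4% (85.3 to 89.2), with minocycline A at 86.7% (77.8 to 92.4). The mix of alpha chains was therefore led by Itgam whether the total was 24 counts, as in control 1, or 1107, as in light 2. Itgal made up 7.56% (4.84 to 11.6) of the sum in light 1 and 3.43% (2.51 to 4.68) in light 2. These intervals cover counting error only. Itgam counts per Itgb2 count were 4.60 and 2.14 in the controls, 1.35 and 1.52 after light, and 1.76 and 3.0 with minocycline, so Itgb2 was closer to Itgam in the light libraries. The control and minocycline ratios rest on 5 to 41 Itgb2 counts a library.

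Itga4, the alpha chain of VLA-4, differed least between the groups. It had 74 and 86 counts in the controls, 126 and 256 after light, and 146 and 98 with minocycline, or 5.26 and 6.06, 7.36 and 12.2, and 6.36 and 5.19 CPM. Light 1 was close to the controls and to minocycline A, and light 2 stood apart. The mean after light was 1.72-fold that of the controls, with a log2 fold change of 0.79 ± 0.31 that did not pass (adjusted p = 0.124, edgeR). Its partner Itgb1 had 648 and 647 counts in the controls, 1053 and 2084 after light, and 1334 and 1206 with minocycline, with a log2 fold change of 0.81 ± 0.21 and an adjusted p = 0.0408 (edgeR), below the fold needed for a call. There were 0.114 and 0.133 Itga4 counts per Itgb1 count in the controls, 0.120 and 0.123 after light, and 0.109 and 0.0813 with minocycline. The other partner, Itgb7, had 3 to 8 counts in every library. Exons of Itga4 share 1124 bases with Cerkl on the opposite strand, a gene with 3202 to 4405 counts a library, and strand use in counting is not stated, so reads of these genes cannot be told apart there.

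C3ar1, the receptor for C3a, had the largest difference of the 7 genes. It had 5 and 2 counts in the controls, 219 and 1160 after light, and 20 and 7 with minocycline, or 0.356 and 0.141, 12.8 and 55.1, and 0.871 and 0.371 CPM. It was barely detected in the controls and had the highest level per kilobase of the 7 genes in both light libraries. The ratio of means was 137-fold (34.0 ± 29.9 against 0.248 ± 0.152 CPM), and the ratio of pooled counts was 146-fold with an exact 95% interval of 70.6 to 364 for counting error. The log2 fold change of 7.06 ± 1.42 was the largest of the 6 tested and missed the threshold at an adjusted p = 0.0896 (edgeR). Its SE was the largest of the 6 in this fit, but not with unshrunken DESeq2 (1.23, against 1.43 for Itgal). The folds of C3ar1 rest mainly on light 2, without which the log2 fold change was 5.65. C3ar1 counts per Itgam count were 0.217 and 0.0667 in the controls, 1.08 and 1.20 after light, and 0.278 and 0.212 with minocycline. The light libraries were alike in this ratio although they differed 4.31-fold in C3ar1 itself.

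C5ar1, the receptor for C5a, had the fewest counts of the 7 genes in both light libraries. It had 1 and 0 counts in the controls, 7 and 27 after light, and 7 and 1 with minocycline, and it was not tested because too few libraries reached the count filter. Without that filter it was called higher in light (log2 fold change 4.34, adjusted p = 0.00759, edgeR). Unshrunken DESeq2 did not call it (log2 fold change 4.57, adjusted p = 0.106, DESeq2), and shrunken DESeq2 did not either. Light 1 (0.409 CPM) and minocycline A (0.305 CPM) held the same 7 counts, and only light 2 reached 1.28 CPM. Pooled counts were 25.2-fold higher after light than in the controls, with an exact 95% interval of 4.22 to 1023 that covers counting error only. Per count of C5ar1 there were 31.3 and 43.0 counts of C3ar1 after light and 2.86 and 7.0 with minocycline. The decoy receptor C5ar2 had 1 count in all 6 libraries together.

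Calls were made at an adjusted p under 0.05 together with a log2 fold change of 2 or more, up or down. Against control, 2 of the 6 tested genes were called higher in light (Itgal and Itgb2), where 2.89% of 14349 tested genes were, and none was lower. Both light libraries lay above both controls for the 6 tested genes and for C5ar1, and 30.9% of the tested genes showed this. Itgax, Itgal, Itgb2 and C3ar1 had fewer than 10 counts in at least 1 control library and passed the filter on low counts through the light libraries, so that the count of genes above the controls is not a finding for them. Groups of 2 allow no exact permutation test below p = 0.333. Unshrunken DESeq2 and edgeR without robust estimation also called Itgam, Itgax and C3ar1, while shrunken DESeq2 called none of the members. Without the filter Itgb2 was no longer called (adjusted p = 0.152, edgeR). The calls also depended on the libraries, as without either control no member was called, without light 1 Itgam, Itgax, Itgal, Itgb2, C3ar1 and C5ar1 were called (6), and without light 2 Itgam, Itgal, Itgb2 and C3ar1 were (4). The size of the difference moved as well, with the log2 fold change from control at 3.69 without light 2 and 5.75 without control 2 for Itgb2, at 3.28 without control 1 and 7.65 without control 2 for Itgal, at 2.66 without light 2 and 4.61 without light 1 for Itgam, and at 1.97 without light 2 and 5.23 without control 2 for Itgax. With 1 library left in a group the spread comes from the other group alone and the lone library is assumed to vary like it, here and in the other comparisons.

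**Figure D2:**
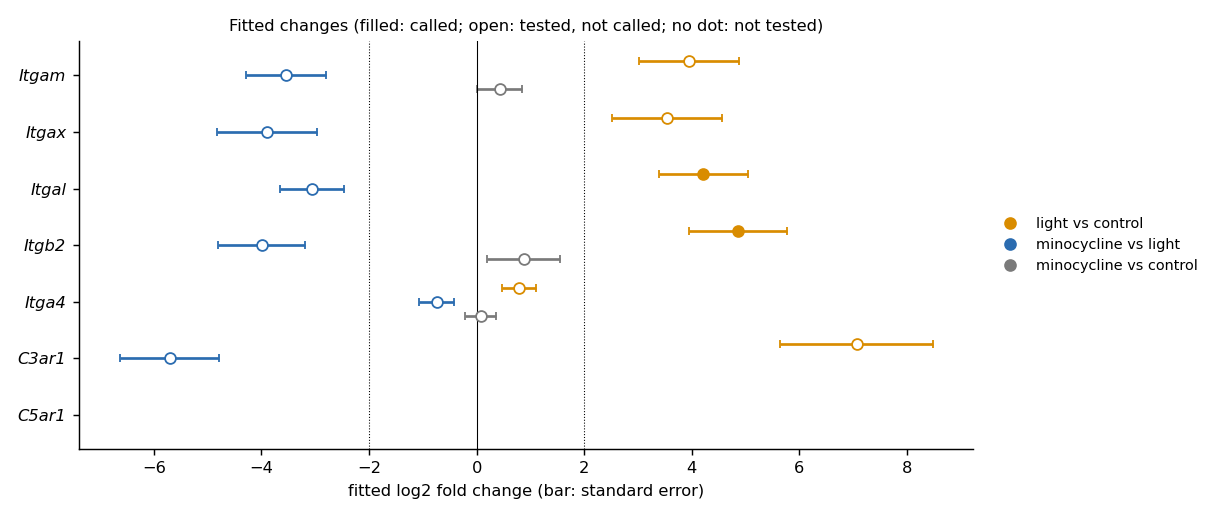
Fitted log2 fold changes with standard errors of the 7 genes in the 3 comparisons, with dotted lines at -2 and 2, filled dots for called genes and open dots for genes tested but not called. Itgal and Itgb2 are called in light against control, the minocycline against light values run from -5.71 for C3ar1 to -0.74 for Itga4, and C5ar1 was not tested in any comparison.

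With minocycline the 7 genes were lower than in light-exposed retinas, but no difference passed the adjusted threshold. Both minocycline libraries lay below both light libraries for the 6 tested genes and for C5ar1, as they did for 27.2% of 14750 tested genes. For C5ar1, light 1 and minocycline A held the same 7 counts and differed through library size alone. Itgax, Itgal and C3ar1 had fewer than 10 counts in at least 1 minocycline library and passed the filter through the light libraries, so the counts of members that were lower are not a finding for them. The means after light were 54.7-fold those with minocycline for C3ar1 and 16.5-fold for Itgb2. For Itgax the ratio was 15.9, for Itgam 11.8, for Itgal 8.83 and for C5ar1 4.73, and Itga4 again differed least at 1.69. The log2 fold changes were -5.71 ± 0.93 for C3ar1 (adjusted p = 0.0712, edgeR), -4.00 ± 0.81 for Itgb2 (0.0901), -3.91 ± 0.93 for Itgax (0.0944), -3.54 ± 0.74 for Itgam (0.0933), -3.06 ± 0.59 for Itgal (0.0709) and -0.74 ± 0.32 for Itga4 (0.241). In this comparison 0.0339% of the tested genes, 5 in number, were called lower, and none of them was a member. At an unadjusted p under 0.05, 5 of the 6 tested members were lower, where 12.1% of all tested genes were. Unshrunken DESeq2 called 4 of them lower (C3ar1, Itgam, Itgax and Itgb2), and so did a fit of all 6 libraries (C3ar1, Itgam, Itgal and Itgb2). Without light 1 the count was 5, without light 2 it was 1 (C3ar1), and without either minocycline library it was 0.

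Compared with controls, the minocycline libraries were not shown to differ in any of the 7 genes. Here 0.134% of 14181 tested genes were called higher, and of the 3 members tested (Itgam, Itgb2 and Itga4) 0 were. The log2 fold changes were 0.43 ± 0.42 for Itgam (adjusted p = 0.776, edgeR), 0.88 ± 0.68 for Itgb2 (0.750) and 0.074 ± 0.29 for Itga4 (0.941). None of the 3 had an unadjusted p under 0.05, and DESeq2 likewise called none. All 3 changed sign without minocycline A. In CPM, minocycline A was above both controls for every gene but Itgax, and minocycline B lay within the control range for every gene but C3ar1 (0.371 against 0.356 in control 1) and Itga4 (5.19 against 5.26 in control 1). C3ar1 had 27 counts in the minocycline libraries together and 7 in the controls, a ratio of 2.61 with an exact 95% interval of 1.11 to 7.09 for counting error. For Itgb2 the counts were 52 and 19, a ratio of 1.85 with an interval of 1.07 to 3.31. Neither interval covers the spread between libraries. The light and minocycline comparisons share libraries, so their values stand side by side here and were not tested against each other.

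Per kilobase of exon, the order of the 7 genes differed between groups. In the controls Itga4 (0.405 ± 0.0403 CPM per kb) and Itgam (0.373 ± 0.0673) led, with overlapping libraries, followed by Itgb2 (0.220 ± 0.146). C3ar1 (0.0577), Itgax (0.0514), C5ar1 (0.0138) and Itgal (0.0107) followed, and each of these overlapped the next. After light C3ar1 (7.89 ± 6.95), Itgb2 (6.40 ± 4.99) and Itgam (5.75 ± 4.80) formed a leading group whose libraries overlapped, and both libraries of each lay above those of Itga4 (0.698 ± 0.243), Itgax (0.608 ± 0.567), C5ar1 (0.329 ± 0.240) and Itgal (0.217 ± 0.0811). With minocycline Itgam (0.486 ± 0.195), Itga4 (0.413 ± 0.0588) and Itgb2 (0.388 ± 0.279) led again, C3ar1 (0.144 ± 0.0821) came next, and every gene overlapped its neighbour in the order. Within light, the lead of C3ar1 over Itgb2 and Itgam was smaller than the spread between the libraries.

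**Figure D3:**
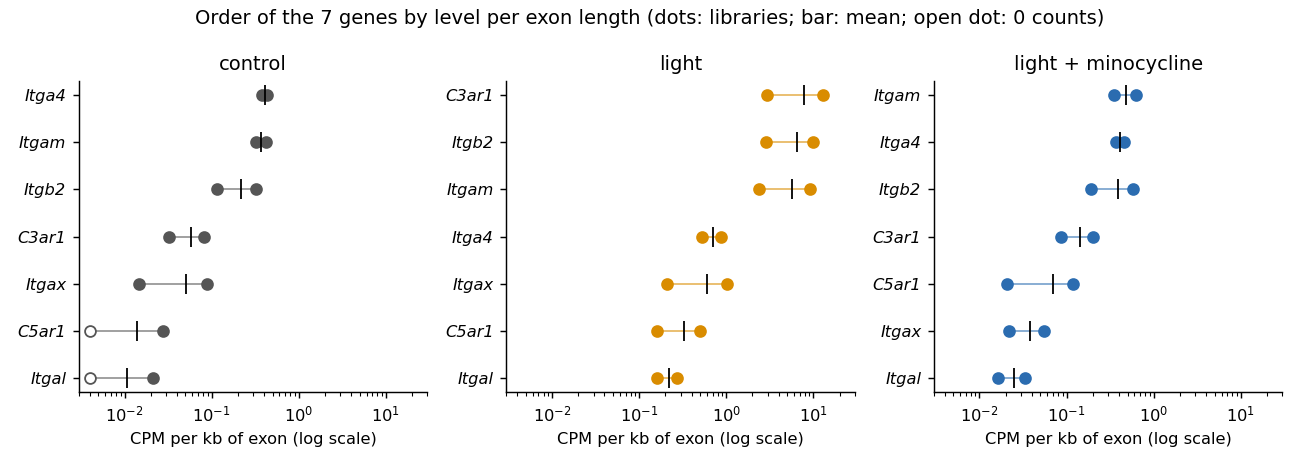
Levels per kilobase of exon on a log axis, sorted by the group mean (bar), with a dot for each library and open dots for 0 counts. C3ar1 moves from the middle of the order in the controls (0.0577 CPM per kb) to its top after light (7.89), and Itga4 from the top (0.405) to the middle (0.698).

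The 7 genes were also set against markers of the cells that could carry them. Per 100 CPM of the pan-leukocyte sum, Itgam stood at 15.9 and 16.2 in the controls, 15.0 and 18.7 after light, and 15.4 and 17.1 with minocycline, a range narrower than that between the light libraries before scaling. C3ar1 stood at 3.45 and 1.08, 16.2 and 22.5, and 4.26 and 3.63 on the same scale, and both light libraries lay above the others. Itgb2 stood at 3.45 and 7.57, 11.1 and 12.4, and 8.74 and 5.70. Itga4 went the other way, with 51.0 and 46.5 in the controls, 9.32 and 4.96 after light, and 31.1 and 50.8 with minocycline. Its own CPM did not fall in light (5.26 and 6.06 in the controls, 7.36 and 12.2 after light), so the ratio fell because the marker sum rose more. How much of the Itga4 signal came from leukocytes was not tested. The values per 100 CPM are descriptions, since the marker sums rest on 145 counts in control 1 and 185 in control 2, of which Coro1a alone gave 69 and 71. Without Coro1a, a choice made after seeing the data, Itgam was lower in light (17.5 and 20.6) than in the controls (30.3 and 26.3), while C3ar1 was still higher (18.8 and 24.7 against 6.58 and 1.75). Itgb2 no longer stood apart on that scale, at 6.58 and 12.3 in the controls, 12.9 and 13.6 after light, and 13.4 and 9.73 with minocycline. Against 10 microglia and macrophage genes C3ar1 was 0.769 and 0.291 per 100 CPM in the controls, 5.47 and 7.81 after light, and 1.14 and 0.873 with minocycline. Itgam was higher in light on this scale, at 3.54 and 4.37 in the controls, 5.07 and 6.51 after light, and 4.11 and 4.11 with minocycline.

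**Figure D4:**
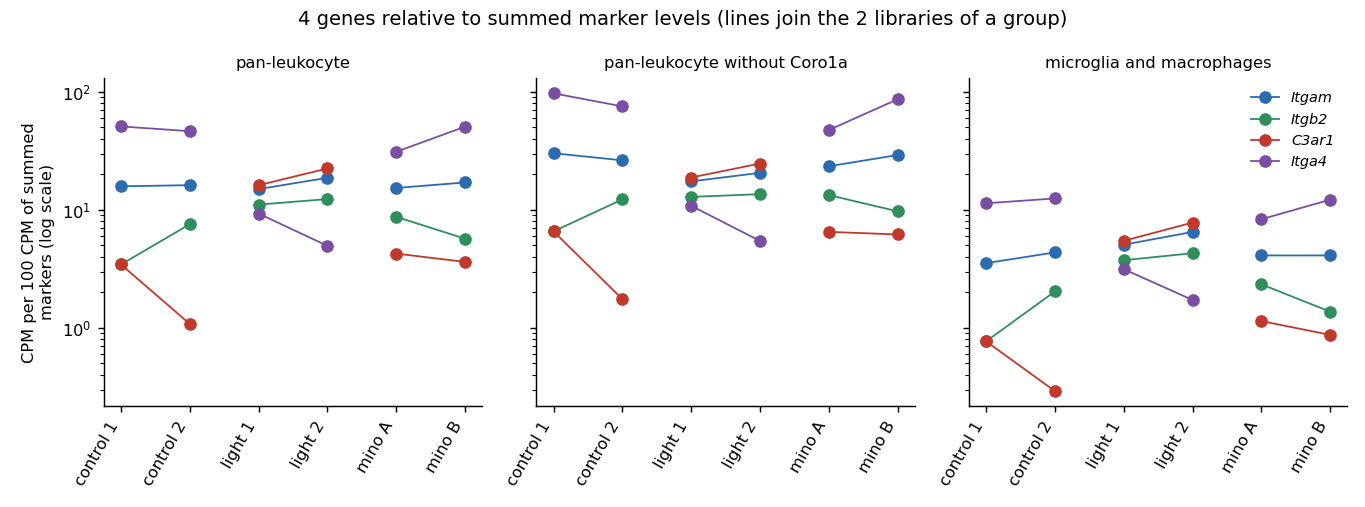
Levels of Itgam, Itgb2, C3ar1 and Itga4 per 100 CPM of 3 marker sums on a log axis, with a line joining the 2 libraries of a group. With each of the 3 sums both light libraries are above the other 4 for C3ar1 and below them for Itga4, whereas the place of the light libraries depends on the sum used for Itgam and for Itgb2. The fall of Itga4 is relative to the marker sums, as its own CPM was higher in light.

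The markers themselves moved as follows. All 5 pan-leukocyte genes and 9 of 10 microglia and macrophage genes were higher in both light libraries than in both controls, the exception being Siglech, with 46.2 and 48.4 CPM summed over the 10 in the controls, 234 and 706 after light, and 76.2 and 42.5 with minocycline. Neutrophil markers summed to 0.213 and 0.0704 CPM in the controls, 0.818 and 1.43 CPM after light, and 0.784 and 0.265 CPM with minocycline, 1 to 30 counts a library. Elane, Camp, Mpo and others, 6 of the 8 measured, had 3 or fewer counts in every library, while S100a8 had 1 and 0 counts in the controls, 7 and 24 after light, and 4 and 2 with minocycline, and S100a9 had 2 and 0, 6 and 4, and 10 and 2. T and NK cell markers summed to 0.711 and 1.20 CPM, 1.81 and 2.23 CPM, and 1.22 and 0.742 CPM, or 10 to 47 counts. Here Cd3e and Ncr1 were at 0 throughout and 8 of 11 at 3 counts or fewer, while Lck had 7 and 12 counts in the controls, 17 and 33 after light, and 17 and 13 with minocycline. Both sums were higher in both light libraries than in the other 4. B cell markers summed to 10 to 34 counts (Ms4a1 at 0), and dendritic cell markers to 45 to 101 counts, nearly all from Flt3 and Zbtb46, with Cd209a at 0. Monocyte markers summed to 26 and 33 counts in the controls, 61 and 99 after light, and 59 and 120 with minocycline; Ccr2 had 0 counts in both controls, 10 and 12 after light, and 1 and 0 with minocycline. The part of any of these cells in the integrin and receptor values was not tested.

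The ligands of these integrins were measured in the same libraries. Over all 14349 genes tested against control, 7.52% were higher in light with an adjusted p under 0.05 and 2.89% were called higher. Of the 26 different genes of the 8 lists that were called higher, 17 had fewer than 10 counts in both control libraries and passed the filter on low counts through the light libraries, so that the list counts given here describe the genes and are not a finding about the lists. Of 16 ligand genes 10 were tested, and 3 had an adjusted p under 0.05, all higher in light (Icam1, C3 and Fn1), of which Icam1 and C3 were called. The median log2 fold change of the list was 1.13, against 0.0025 over all tested genes. Icam1, the endothelial ligand of LFA-1 and complement receptor 3, had 16 and 8 counts in the controls, 50 and 138 after light, and 46 and 30 with minocycline. C3, whose cleaved form is the ligand of complement receptors 3 and 4 and the source of C3a, had 19 and 13, 317 and 716, and 53 and 10 counts (log2 fold change 4.53 ± 0.38 in light). The VLA-4 ligand Vcam1 had 126 and 52, 390 and 1084, and 262 and 224 counts and did not pass (adjusted p = 0.106, edgeR). Spp1, the gene of osteopontin, had 65 and 65 counts in the controls and 6281 and 35124 after light, and 325 and 394 counts with minocycline, where it was the only gene of the 8 lists with an adjusted p under 0.05 against control (0.0437, edgeR; log2 fold change 1.97), as 0.162% of all tested genes had in that direction.

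Among the other integrin chains, 4 of 12 tested alpha chains had an adjusted p under 0.05 in light and 1 was called (median log2 fold change 0.64). It was Itga5, a fibronectin receptor chain, with 21 and 22 counts in the controls, 62 and 272 after light, and 39 and 39 with minocycline. Of 5 tested beta chains 3 had an adjusted p under 0.05 and 1 was called (median 1.62), Itgb3, with 2 and 4, 25 and 57, and 6 and 4 counts. No chain on either list was lower with an adjusted p under 0.05. The most abundant beta chains per kilobase were Itgb1, Itgb5 and Itgb8, and the most abundant alpha chains Itgav, Itga3 and Itga9, which all exceeded Itga4 per kilobase in the controls.

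Genes that act inside the cell on integrin activation and signalling divided into these groups. Of 14 tested activation genes 5 had an adjusted p under 0.05, all higher in light, and 3 were called (Apbb1ip, Fyb and Vav1; median 0.36). Apbb1ip, which links Rap1 to talin, had 3 and 6 counts in the controls, 38 and 134 after light, and 13 and 8 with minocycline. The widely expressed talin gene Tln1 had 1213 and 1548, 1941 and 2849, and 1820 and 1906 counts and did not pass. Of 16 genes of leukocyte integrin signalling 13 had an adjusted p under 0.05, all higher, and 11 were called (median 3.50), among them the kinase Syk with 3 and 7, 77 and 292, and 19 and 6 counts, and the adaptor gene Fcer1g with 16 and 15, 238 and 840, and 50 and 23 counts. The other adaptor gene, Tyrobp, had 46 and 54, 732 and 2775, and 152 and 68 counts and an adjusted p = 0.0756 (edgeR). Coro1a stands both on this list and among the pan-leukocyte markers.

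On the complement side, 5 of 11 tested genes of C3 and C5 cleavage had an adjusted p under 0.05, all higher in light, and 4 were called (C1ra, C1s, C3 and Cfb; median 2.87). Cfb, the protease precursor of the alternative pathway, had 3 and 2 counts in the controls, 24 and 31 after light, and 3 and 11 with minocycline. The C1q chains did not pass, with C1qa at 80 and 122, 1253 and 5254, and 416 and 116 counts. C1s had 32 and 44 counts after light and 37 and 37 with minocycline, so it did not show the pattern of C3ar1 across the groups. C2 went further, with 10 and 21 counts in the controls, 24 and 47 after light, and 108 and 455 with minocycline (log2 fold change from light 2.99, adjusted p = 0.145, edgeR), in the libraries that also held the corneal epithelium and smooth muscle markers. Hc, the gene of C5, had 1 count in light 1 and 1 in minocycline B and none elsewhere, which is under the limit of 3 counts in each library.

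Of 6 tested genes that limit anaphylatoxins, 2 were called higher in light (Cfi and Serping1; median 0.63), and these were also the 2 with an adjusted p under 0.05. Serping1, the C1 inhibitor, had 32 and 35 counts in the controls, 298 and 520 after light, and 127 and 143 with minocycline, with an adjusted p = 0.000739 (edgeR). The carboxypeptidase gene Cpm, whose product trims C3a and C5a, had 285 and 261, 294 and 279, and 336 and 361 counts. Of 14 genes of receptor signalling 6 had an adjusted p under 0.05, all higher in light, and 3 were called (Gna15, Plcb2 and Pik3r5; median 0.59). Gna15, a G protein alpha chain of blood cells, had 0 and 3, 29 and 88, and 8 and 6 counts. Between minocycline and light, 0 genes of the 8 lists had an adjusted p under 0.05 by edgeR, where 0.0407% of all tested genes did and were lower, and the medians of the lists ran from -3.36 for leukocyte integrin signalling to -0.34 for receptor signalling, against 0.0062 over all tested genes. At an unadjusted p under 0.05 in either direction there were 45 of the 89 different list genes tested in this comparison, of which 43 were lower with minocycline, where 21.1% of all tested genes had such a p. The filter applies here too, so the larger share is a description.

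**Figure D5:**
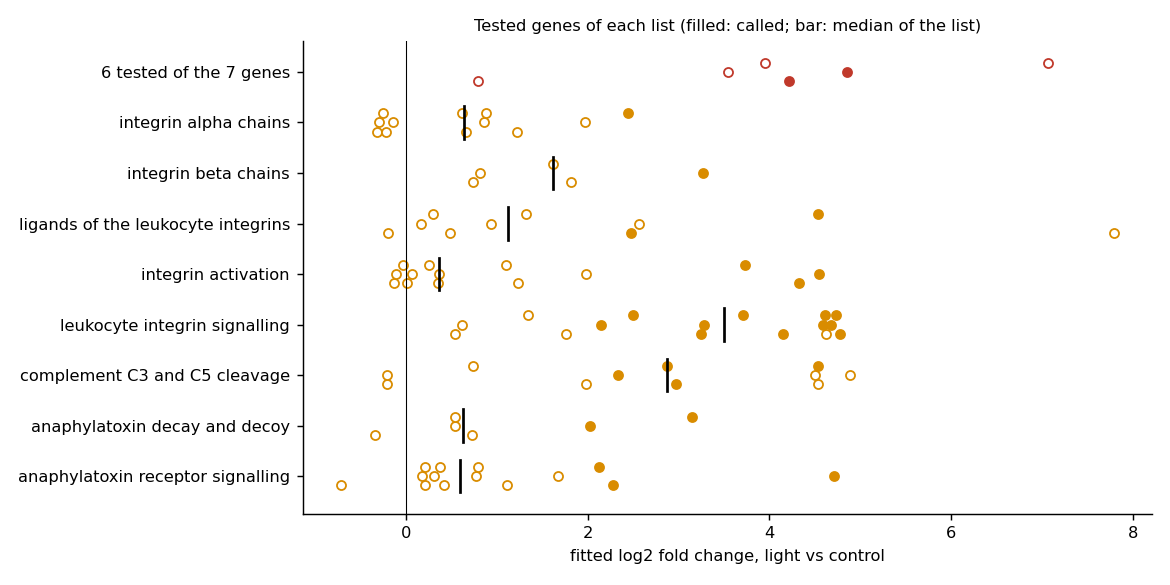
Fitted log2 fold changes in light against control for the tested members and for the tested genes of the 8 lists, with filled dots for called genes and a bar at the median of each list. The signalling list has the highest median of the 8 (3.50, with 11 of 16 called), and the activation list (median 0.36) holds 3 called genes, with the other 11 between -0.14 and 1.98.

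For each gene the 3 others with the most similar course over the 6 libraries were found by the root mean square difference (RMS) of centred log2 CPM, among 14712 candidates. For Itgam these were Ptprc, the CD45 gene of all leukocytes (RMS 0.135), Gatm (0.136) and Dock2 (0.146). Ptprc had 11 and 12 counts in the controls, 99 and 400 after light, and 34 and 12 with minocycline. For Itgb2 they were Syk (0.200), Rac2 (0.202) and C1qa (0.220), for Itgax Ticam2 (0.188), Elf4 (0.297) and Cd33 (0.298), and for Itgal Treml2 (0.156), Sla (0.245) and Cd86 (0.266). C3ar1 had no match as close, with Ms4a6d at 0.339, Cd180 at 0.416 and Hal at 0.434. Itga4 had the closest matches of all, Baiap2 (0.0343), Dgkq (0.0706) and Irak1 (0.0737), genes that differed as little between groups as it did. C5ar1 was below the filter. Likeness over 6 libraries in 3 groups is a description only, and Pearson r in its place gave 5 of the 18 names.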

How the data were processed

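Stranded mRNA libraries were sequenced as single reads, and the authors used RNA Express, which maps with STAR, on mm10 (GRCm38). The authors deposited whole-number counts per gene, though their data statement calls them normalized; the annotation, versions and strand setting are not given in the sources used here. The number of value columns left out was 0. Symbols were matched to GENCODE M21 (21764 directly, 1304 through a synonym) for exon lengths.

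Pairs of groups were compared with edgeR 4.0.16 (R 4.3.3): filterByExpr, TMM, robust quasi-likelihood test, Benjamini-Hochberg adjustment, and a call at an adjusted p under 0.05 with a log2 fold change of 2 or more, up or down. The script was tested on simulated data. Prior count was 2 for log2 CPM, and the SE of an edgeR log2 fold change is its size divided by the square root of the F statistic. Genes named are the 7 members, called genes (at most 6 per list) and the 3 most abundant of 8 pathway lists, and the 3 nearest genes, plus others given for their role and chosen after their values were seen. Members and lists were chosen with earlier results of these data known. Alternatives were DESeq2 1.42.0 with and without shrinkage, other scalings, filters and thresholds, a replicate block, and each library left out. The methods call the 2 libraries of a group biological replicates.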

Additional observations from a re-analysis of the deposited data

How the results depend on the processing

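For the 6 members tested, log2 fold changes kept their sign in all 86 values from 15 alternatives for light against control and all 81 from 14 for minocycline against light, while calls did not: 7 and 0 of the values lost the call and 18 and 15 gained one. Their sizes moved more: when a library was left out, the log2 fold changes from control ran from 2.66 to 4.61 for Itgam, 1.97 to 5.23 for Itgax, 3.28 to 7.65 for Itgal, 3.69 to 5.75 for Itgb2, 0.38 to 1.11 for Itga4 and 5.65 to 7.84 for C3ar1. Between minocycline and light they ran from -4.21 to -2.27 for Itgam, -4.68 to -2.36 for Itgax, -3.65 to -2.62 for Itgal, -5.02 to -2.86 for Itgb2, -1.07 to -0.35 for Itga4 and -6.46 to -4.33 for C3ar1. In both, each of these values nearest 0 came from leaving out light 2, except that of Itgal from control, which came from leaving out control 1. The count of members called higher in light was 2, and it was 5 with unshrunken DESeq2 and without robust estimation, 4 with total library size and with all 6 libraries in one fit, and 0 with shrunken DESeq2 (folds then under the cutoff) and with a minimum of 10 counts per library (2 members left to test). With no filter it was also 2, but these were Itgal and C5ar1, and Itgb2 was lost. It ran from 0 to 6 when a library was left out. The count called lower with minocycline against light was 0, and it was 4 with unshrunken DESeq2 and with all 6 libraries in one fit, 1 with no filter, and 0 to 5 when a library was left out. Against control, leaving out a library moved the log2 fold change between -0.063 (without minocycline A) and 0.74 for Itgam, -0.17 (without minocycline A) and 1.78 for Itgb2, and -0.087 (without minocycline A) and 0.18 for Itga4, which was -0.031 without control 1. The cause was not tested.

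The replicate numbers of control and light share only a number (correlation of deviations -0.011 over 14713 genes), and as a replicate block they gave 5 members called higher and 473 genes higher over all. No paired analysis was possible because of missing numbers where minocycline was compared, as its columns carry none. Over all genes, 415 were called higher in light, against 73 with shrunken DESeq2, 144 with the stricter filter and 3 to 738 with a library left out. With minocycline against light, 2 genes were called higher and 5 lower, against 108 and 297 with unshrunken DESeq2, 63 and 218 in the fit of all libraries, 72 and 209 with no filter, 6 and 22 with shrunken DESeq2, 5 and 9 without robust estimation, 0 and 2 with DESeq2 size factors, 0 and 0 with total library size, and 6 to 112 and 4 to 406 with a library left out. Against control, 19 were called higher, against 101 with unshrunken DESeq2, 96 with no filter, 2 with the stricter filter, 0 in the fit of all libraries and with shrunken DESeq2, and 3 to 276 with a library left out. Total library size moved the median of all genes to 0.24 in light against control and to -0.17 in minocycline against light. Of 21 levels per kilobase, 3 moved by more than 1 SD with the longest transcript and 4 ranks changed, Itgam and Itga4 at the top of the minocycline order and C3ar1 and Itgax in the controls, and 12 of 18 nearest genes were shared at a prior count of 0.5. Fewer than 10 counts in both control libraries limit Itgal, C5ar1, Itgax and C3ar1.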
